A study of Mus musculus with 8 samples.

Results

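The 10 genes described here, Myt1l, Rfc3, Pus10, Psme2, Bnip2, Camsap2, Tom1l1, Gm11747, Gm7993 and Gm14308, were chosen because a deposited transcript row of each differed between genotypes in obese mouse fat, in most of them by being at or near 0 in 1 genotype. They hold 72 of 152298 deposited transcript rows and are 10 of 55487 genes. RNA was sequenced from epididymal white adipose tissue, the fat pad beside the epididymis, of 8 male C57BL/6 mice made obese by a high-fat diet. The 4 AKO mice (numbers 3, 8, 9 and 11) carried floxed Slc16a1 and AP2-Cre, a Cre recombinase driven by the Fabp4 (aP2) promoter, which is active in fat cells and is known to act in some macrophages too. Their label gives the genotype Slc16a1 -/-. The 4 WT mice (numbers 2, 3, 4 and 5) carried the same floxed Slc16a1 and no Cre. Slc16a1 encodes MCT1, a carrier of lactate, pyruvate and ketone bodies.

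Most mammalian genes make several transcripts through alternative starts, splicing and ends. Such transcripts can code for different proteins, keep an intron or be degraded early, so a gene can change which transcripts it makes without changing its total output. In sequencing data, reads that match several transcripts are divided among them by the quantification, and the level given to 1 transcript depends on those given to the others. The values are TPM, transcript abundances scaled to a total of 1000000 per library, with 1 value per row, and the rows of a gene are numbered here in file order because the files do not name their transcripts. Row sums are called gene totals. A listing of 0 may hide a transcript that the estimation missed, and TPM keeps no read depth.

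The libraries were fat by their markers. The summed level of 8 fat cell marker genes was 28956 to 39732 TPM in AKO and 27932 to 41615 TPM in WT. Most of it was Fabp4, with means of 22240 TPM in AKO and 21630 TPM in WT. Adipoq, another of the 8, averaged 2976 TPM in AKO and 3456 TPM in WT. The Slc16a1 total was 22.4, 21.5, 27.1 and 25.03 TPM in the libraries labelled AKO and 23.4, 28.5, 15.7 and 17.7 TPM in those labelled WT. It therefore does not check the labels, and AKO and WT stand for the labels throughout. Rows above 0 numbered 66578 to 70720 in AKO libraries and 63143 to 66466 in WT libraries. Library AKO 11 stood apart by sperm genes: Prm1, Prm2 and Tnp1 summed to 1162 TPM there, against 0.15 to 46.4 TPM in the other AKO libraries and 8.38 to 31.01 TPM in WT. In whole tissue, fewer cells of a type and less RNA per cell cannot be told apart.

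For each gene the leading row is the row with the largest difference between genotypes on the log2(TPM + 1) scale. This difference, AKO minus WT, understates changes at low levels. Of the 10 leading rows, 8 were higher in AKO and 2 were lower, and in all 10 the groups did not overlap. Among the 99191 rows above 0 in any library, 1.19% had every AKO library above every WT library and 0.833% had every AKO library below. The members were chosen on this contrast, so their values are a description without a test. The leading differences kept their sign without AKO 11. They then ran from 1.003 for Myt1l to 2.43 for Bnip2 among the 8 higher rows, with Tom1l1 at -1.33 and Gm11747 at -2.41.

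**Figure D1:**
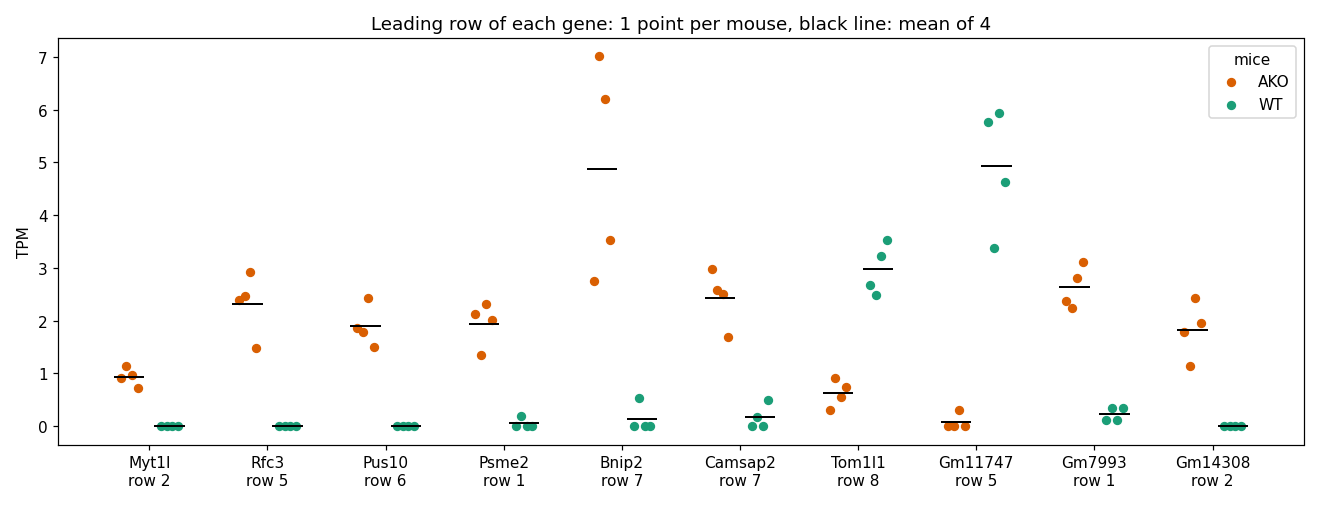
The leading row of each gene in TPM, 1 point per mouse, AKO left of WT, with a black line at the mean of 4. The AKO points lie above the WT points for 8 genes and below them for Tom1l1 and Gm11747.

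Among the genes of nuclear roles, Myt1l differed as a whole gene and not by a switch between its rows. Myt1l encodes a zinc finger transcription factor that represses non-neuronal genes in neurons. All 11 rows were listed at 0 in all WT libraries, and 7 were above 0 in at least 1 AKO library. Row 2, the leading row, had 0.92, 1.14, 0.96 and 0.73 TPM in AKO mice 3, 8, 9 and 11. Row 9 was next, with 0.77, 0.15, 0.33 and 0.45 TPM in AKO mice. Rows 4, 5 and 6 were also above 0 in every AKO library, between 0.02 and 0.27 TPM. Row 1 was above 0 in AKO 11 and row 8 in AKO 9 and 11. The gene total was thus 2.03, 1.66, 1.57 and 2.11 TPM in AKO and listed at 0 in WT. The division between rows varied between AKO mice, with row 2 holding 34.6% of the total in AKO 11 and 68.7% in AKO 8.

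Levels of other neuron genes stand beside this. The summed level of 12 neuron markers was 15.99 to 22.4 TPM in AKO and 14.6 to 20.4 TPM in WT. Most of it was Uchl1, at 12.9 ± 2.67 TPM in AKO and 11.6 ± 2.14 TPM in WT, so it says little about low genes. Of the 12 markers, 3 passed the filter on low values and 0 passed limma's test at an FDR of 0.05, with 0 at an unadjusted p under 0.05. Markers under the filter went both ways. Elavl4 had 0, 0.08, 0.16 and 0.03 TPM in AKO and was listed at 0 in WT, and Snap25 averaged 0.175 TPM in AKO and 0.0675 TPM in WT. Nefl averaged 0.065 and 0.1925 TPM, and Rbfox3 0.065 and 0.125 TPM, in AKO and WT. The noradrenaline synthesis genes Th and Dbh were listed at 0 in every library. In AKO mice 3, 8, 9 and 11 the sperm genes summed to 0.76, 46.4, 0.15 and 1162 TPM. The Myt1l total in these mice was 2.03, 1.66, 1.57 and 2.11 TPM. Whether RNA of nerve or testis had a part in the Myt1l level was not tested. Gm20208, whose exons overlap those of Myt1l on the opposite strand, had at most 0.22 TPM in AKO and was listed at 0 in WT.

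Rfc3 had an added row on top of a main row that did not separate the genotypes. Its protein is a subunit of replication factor C, the clamp loader that places the PCNA ring on DNA for replication and repair. Row 5 had 2.39, 2.47, 2.93 and 1.48 TPM in AKO mice 3, 8, 9 and 11 and was listed at 0 in all WT mice. It held 19.97% ± 3.13 of the gene in AKO (SD, n = 4). The main row, row 1, had 10.03, 7.46, 10.7 and 7.68 TPM in AKO and 7, 12.5, 6.17 and 10.9 TPM in WT, and the groups overlap. Row 7 showed the opposite pattern in a single library, with 1.43 TPM in WT 2 and a listing of 0 in the other 7. In mean TPM row 5 was higher by 2.32 in AKO and the other rows were lower by 0.585, less than their pooled within-genotype SD of 2.16. They did not balance it, and the total averaged 11.5 ± 1.99 TPM in AKO and 9.77 ± 2.67 TPM in WT (SD, n = 4 each), with overlap. The GENCODE M21 annotation lists 1 protein-coding and 6 retained-intron transcripts for Rfc3, but which of them row 5 stands for is not known.

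Pus10 had a new row and a lower mean sum of the others, which overlapped between genotypes, with no difference in its total beyond the spread. PUS10 is a pseudouridine synthase, an enzyme that turns uridine of tRNA into pseudouridine. Row 6 had 1.86, 1.79, 2.43 and 1.5 TPM in AKO mice 3, 8, 9 and 11 and was listed at 0 in all WT mice. It held between 11.8% and 18.2% of the AKO totals. The other rows summed to 10.7, 13.2, 10.9 and 11.3 TPM in AKO mice and 11.7, 13.04, 16.3 and 14.2 TPM in WT mice. Their mean was lower by 2.29 TPM in AKO, more than their pooled SD of 1.59 and slightly more than the 1.895 TPM that row 6 adds. The groups overlap, however, since AKO 8 lies above the lowest WT values. The total averaged 13.4 ± 1.09 TPM in AKO and 13.8 ± 1.95 TPM in WT. No single row took up the difference: rows 1, 2, 3, 7 and 8 all had lower means in AKO. Row 3 contributed most, with 5.52, 6.14, 1.99 and 3.65 TPM in AKO and 5.85, 3.64, 5.64 and 6.70 TPM in WT. Pex13, a peroxisomal import gene whose exons overlap those of Pus10 on the opposite strand, had 39.9 ± 4.54 TPM in AKO and 43.04 ± 2.60 TPM in WT (limma FDR = 0.845 over all genes).

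**Figure D2:**
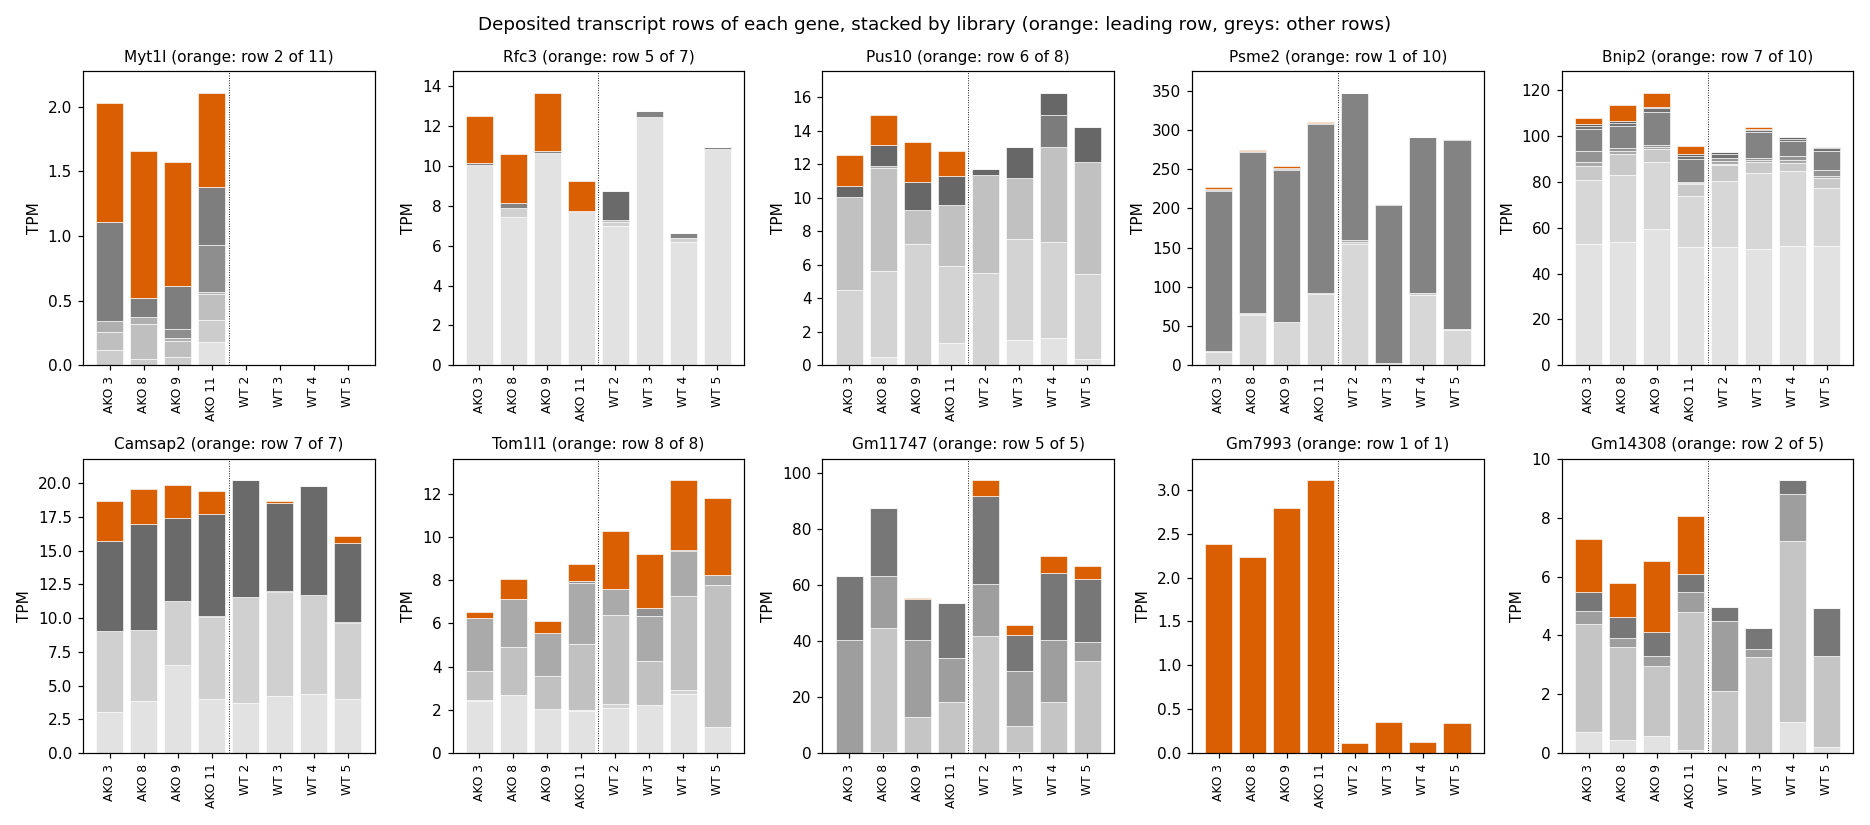
All rows of each gene in TPM, stacked by library with the AKO mice left of the WT mice, the leading row in orange and the other rows in greys. The orange part is added on top of grey rows in 6 genes, makes up the whole of Gm7993, is part of a whole-gene difference in Myt1l and is smaller in AKO for Tom1l1 and Gm11747.

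Among genes of protein breakdown and cell survival, Psme2 differed in minor rows of an abundant gene. PSME2 (PA28 beta) forms with PSME1 the interferon-induced cap that opens the proteasome for antigen processing. Row 1 had 2.12, 1.34, 2.31 and 2.01 TPM in AKO mice 3, 8, 9 and 11, against 0.20 TPM in WT 3 and a listing of 0 in WT mice 2, 4 and 5. Row 4 went the opposite way, with 0.77 TPM in AKO 8 and 0 in the other AKO mice, against 1.77, 1.06, 2.16 and 0.89 TPM in WT. Both rows separate the genotypes, and together they hold little of the gene, row 1 being 0.750% ± 0.220 of the total in AKO. Row 8 carried most of it, at 204.5 ± 8.85 TPM in AKO and 206.8 ± 23.4 TPM in WT. Row 3 varied widely within each genotype, with 16.7, 63.1, 55.3 and 90.6 TPM in AKO and 154.7, 0, 90 and 45.1 TPM in WT. The totals were 266.2 ± 35.4 TPM in AKO and 283.2 ± 58.3 TPM in WT and overlap. Their difference of -16.95 TPM was close to the -16.03 TPM of row 3.

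Reads of Psme2 are hard to tell from those of Psme2b, a near-identical copy on chromosome 11. Of the 31-base words in the longest Psme2 transcript, 66.2% occur in Psme2b, and the coding sequences are identical at 712 of 717 aligned bases. The stretch of 90 bases with most differences shows how few positions separate the genes (GENCODE M21 on GRCm38, transcript strand, 5′ to 3′, differences in capitals):
Psme2: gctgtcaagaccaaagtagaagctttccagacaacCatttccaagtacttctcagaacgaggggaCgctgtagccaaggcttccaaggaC
Psme2b: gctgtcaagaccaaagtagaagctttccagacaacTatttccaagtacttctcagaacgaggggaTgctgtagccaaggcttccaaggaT
Psme2b had 9.26, 8.75, 11.99 and 9.21 TPM in AKO and 5.37, 11.1, 7.84 and 5.05 TPM in WT, which overlap (log2 difference 0.42, SE 0.22, limma FDR = 0.831 over all genes). The levels of both genes are uncertain where reads fall on shared stretches.

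Bnip2 had an added row that its other rows did not offset. BNIP2 is a BCL2-interacting protein with a lipid-binding BCH domain. Row 7 had 2.75, 7.01, 6.20 and 3.52 TPM in AKO mice 3, 8, 9 and 11, against 0.53 TPM in WT 3 and a listing of 0 in WT mice 2, 4 and 5. This leading difference of 2.33 was the largest upward one of the 10 genes on the log2(TPM + 1) scale. The main rows 1 and 2 had 54.5 ± 3.47 and 27.04 ± 3.44 TPM in AKO, and 51.6 ± 0.632 and 29.95 ± 3.79 TPM in WT. Row 8 ran from 9.52 to 14.1 TPM in AKO, against 0.26 TPM in WT 2 and 6.38 to 11.2 TPM in the other WT mice. The other rows summed to 6.32 TPM more in AKO, within their pooled SD of 6.94, so the total was 109.0 ± 9.99 TPM in AKO and 97.9 ± 4.81 TPM in WT, with overlap.

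Among genes of the cytoskeleton and membrane traffic, Camsap2 had an added row and totals that overlap between genotypes. CAMSAP2 binds and stabilises the minus ends of microtubules that are not anchored at centrosomes. Row 7 had 2.98, 2.58, 2.50 and 1.69 TPM in AKO mice 3, 8, 9 and 11 and 0, 0.18, 0 and 0.49 TPM in WT mice 2, 3, 4 and 5. It held 12.6% ± 2.97 of the gene in AKO and 1.0% ± 1.44 in WT. Row 2 was the row with the largest difference of the other sign, at 6.06, 5.29, 4.74 and 6.09 TPM in AKO and 7.87, 7.71, 7.30 and 5.66 TPM in WT, where WT 5 overlaps the AKO mice. In mean TPM, row 7 was higher by 2.27 in AKO and the other rows were lower by 1.57, close to their pooled SD of 1.61. The totals were 18.7 to 19.9 TPM in AKO and 16.1 to 20.2 TPM in WT.

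Tom1l1 was lower in AKO in its leading row, and its total was lower too. TOM1L1 is a VHS and GAT domain adaptor of endosomal sorting that also binds Src family kinases. Row 8 had 0.30, 0.91, 0.56 and 0.75 TPM in AKO mice 3, 8, 9 and 11 and 2.68, 2.49, 3.23 and 3.53 TPM in WT mice 2, 3, 4 and 5. It did not vanish: its share of the gene was 8.41% ± 2.80 in AKO and 27.2% ± 1.95 in WT (SD, n = 4 each). Row 3 also had a lower mean, with 1.33, 2.22, 1.54 and 3.06 TPM in AKO and 4.08, 2.06, 4.35 and 6.58 TPM in WT, where WT 3 lies among the AKO mice. Row 4 differed in the other direction, at 2.38 ± 0.361 TPM in AKO and 1.46 ± 0.761 TPM in WT, with 2.06 and 2.07 TPM in WT 3 and WT 4 above the lowest AKO value of 1.98. These rows did not balance row 8. The total was 6.53, 8.05, 6.13 and 8.73 TPM in AKO and 10.3, 9.19, 12.6 and 11.8 TPM in WT, without overlap. Cox11, a gene for an assembly factor of cytochrome oxidase that overlaps Tom1l1 on the opposite strand, had 10.8 ± 0.604 TPM in AKO and 9.995 ± 1.14 TPM in WT (limma FDR = 0.850).

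Gene totals without overlap numbered 2 with AKO above, Myt1l and Gm7993, and 1 with AKO below, Tom1l1. Over the 14172 genes tested, 1.11% had every AKO library above and 1.33% every AKO library below. The other 7 totals overlap between genotypes although their leading rows do not.

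**Figure D3:**
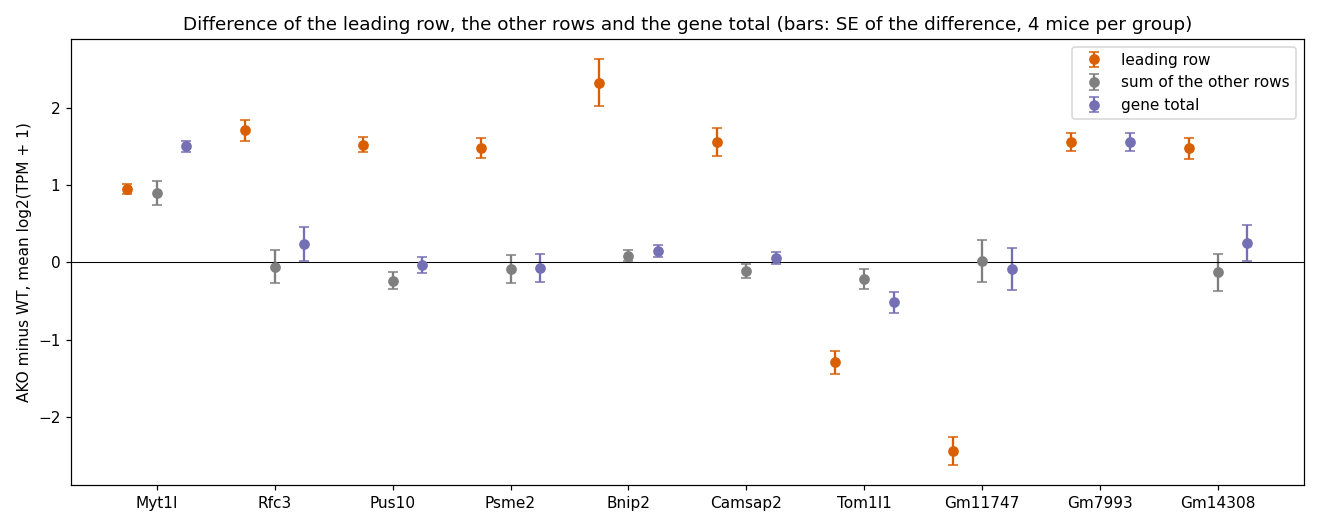
AKO minus WT difference in mean log2(TPM + 1) of the leading row (orange), the sum of the other rows (grey) and the gene total (purple) for each gene, with bars for the SE of the difference over 4 mice per genotype. Leading rows lie far from 0 in every gene, while totals lie far from 0 for Myt1l and Gm7993 and below it for Tom1l1.

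The 3 predicted genes included the row that came nearest to vanishing. Gm11747 is a long non-coding RNA antisense to C1qtnf1, which encodes CTRP1, a secreted relative of adiponectin. Row 5 had 0, 0, 0.31 and 0 TPM in AKO mice 3, 8, 9 and 11 and 5.76, 3.38, 5.94 and 4.63 TPM in WT mice 2, 3, 4 and 5. That is 7.17% ± 1.05 of the gene in WT. Row 2 varied more between mice of 1 genotype than row 5 did between genotypes, with 0.01, 44.5, 12.7 and 18.2 TPM in AKO and 41.9, 9.24, 18.3 and 32.8 TPM in WT. Row 3, with 40.3 TPM in AKO 3 where row 2 was lowest, had 25.5 ± 11.1 TPM in AKO and 16.9 ± 6.79 TPM in WT. The total was 65.0 ± 15.7 TPM in AKO and 70.1 ± 21.3 TPM in WT, and the rows other than row 5 differed by -0.283 TPM against a pooled SD of 18.2. C1qtnf1 had 91.9 ± 13.2 TPM in AKO and 100.2 ± 21.7 TPM in WT (log2 difference -0.11, SE 0.16, limma FDR = 0.908). The sources used here do not state whether strand was used in the quantification, so reads of this pair may not be told apart.

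Gm7993 has a single row and therefore no switch within the gene. It had 2.38, 2.23, 2.80 and 3.11 TPM in AKO mice 3, 8, 9 and 11 and 0.11, 0.35, 0.12 and 0.34 TPM in WT mice 2, 3, 4 and 5. Every AKO value is above every WT value, with means of 2.63 ± 0.401 TPM in AKO and 0.230 ± 0.133 TPM in WT. The annotation lists it as a processed pseudogene, and over 1366 aligned bases its transcript is 97.7% identical to the coding sequence of Odc1. Odc1 encodes ornithine decarboxylase, the rate-limiting enzyme of polyamine synthesis. A stretch of 90 bases with the most differences, in capitals, is shown because it bears on how reads of the pair can be assigned (GENCODE M21 on GRCm38, transcript strand, 5′ to 3′):
Gm7993: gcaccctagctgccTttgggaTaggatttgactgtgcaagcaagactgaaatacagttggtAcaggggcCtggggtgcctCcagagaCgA
Odc1: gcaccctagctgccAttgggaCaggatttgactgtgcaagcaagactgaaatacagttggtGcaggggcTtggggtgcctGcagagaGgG
Odc1 itself had 69.9, 63.2, 61.97 and 65.05 TPM in AKO and 83.98, 88.1, 68.7 and 69.9 TPM in WT. Its mean was 65.02 ± 3.46 TPM in AKO and 77.7 ± 9.84 TPM in WT (limma FDR = 0.831), so it did not pass the test. The mean difference of Odc1 was larger in TPM than that of Gm7993 and of the other sign, and whether reads moved between them was not tested.

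Gm14308 is a predicted protein-coding gene on chromosome 2. Row 2 had 1.78, 1.14, 2.42 and 1.95 TPM in AKO mice 3, 8, 9 and 11 and was listed at 0 in all WT mice. It held 26.4% ± 7.45 of the gene in AKO. Row 4 had the largest difference of the other sign, with 0.440 ± 0.164 TPM in AKO and 1.07 ± 1.13 TPM in WT, and overlapped. The other rows were lower by 0.770 TPM in AKO, within their pooled SD of 1.74, and the total was 6.91 ± 0.975 TPM in AKO and 5.86 ± 2.30 TPM in WT. WT 4 had the highest total of all, at 9.27 TPM. All 31-base words of its longest transcript occur in other genes (100% in Gm14434, Gm2026 and Gm4724), so the level of Gm14308 is uncertain. Its other transcripts were not searched. Gm14434 had 13.7 ± 3.54 TPM in AKO and 19.4 ± 4.57 TPM in WT (log2 difference -0.47, SE 0.22, limma FDR = 0.831). The nearby tested gene Zfp967 had 14.3, 6.18, 8.39 and 13.8 TPM in AKO and 18.1, 12.8, 22.2 and 21.1 TPM in WT (limma FDR = 0.831).

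Rows at 0 in a whole genotype were counted across the table, because the appearing rows have to be read beside them. Of the 99191 rows above 0 in any library, 198 (0.200%) were above 0 in all AKO libraries and at 0 in all WT libraries, and 58 (0.0585%) were at 0 in all AKO libraries and above 0 in all WT libraries. The 10 genes hold 8 of the 198, which the choice of members fixes: 5 rows of Myt1l and 1 each of Rfc3, Pus10 and Gm14308. Gene totals were at 0 in all WT and above 0 in all AKO libraries for 42 of 29353 genes (0.143%), and the reverse for 8 (0.0273%). Of the 3 totals (0.0102%) at 0 in all WT and at 1 TPM or more in all AKO libraries, Myt1l is 1. At 1 TPM or more in every AKO library and 0 in every WT library there were 6 rows (0.00605%), of which Rfc3, Pus10 and Gm14308 hold 1 each. Of the 33323 rows that passed the filter, limma called 5 higher (0.0150%) and 2 lower (0.00600%) in AKO at an FDR of 0.05, from which nothing is read about the members. All AKO libraries also had more rows above 0 than all WT libraries. The part of this wider difference in the appearing rows was not tested.

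**Figure D4:**
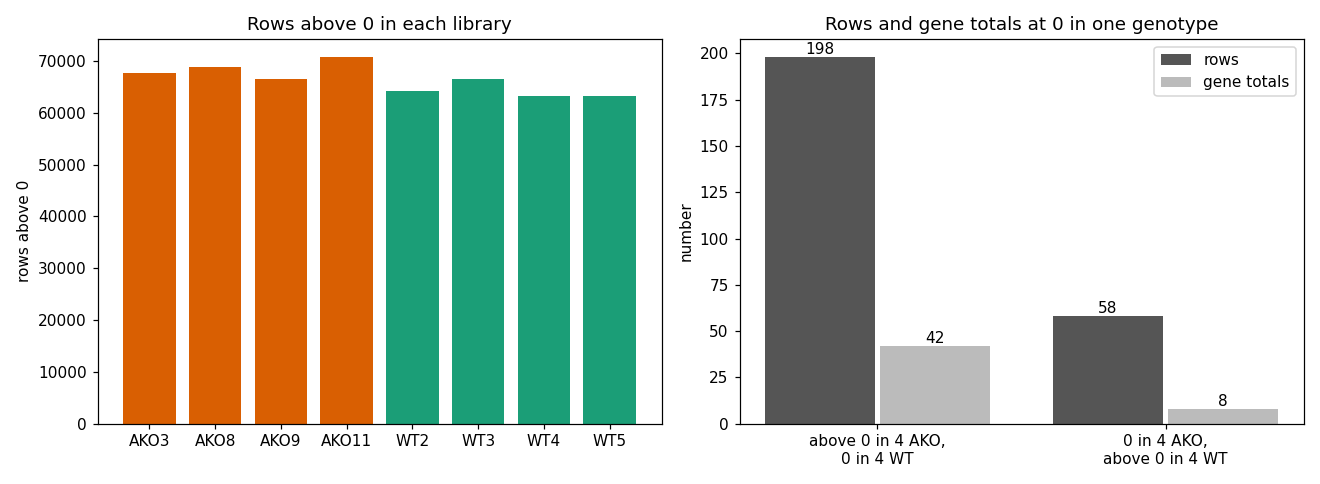
Left, rows above 0 in each library, AKO in orange and WT in green. Right, numbers of rows (dark) and gene totals (light) that were above 0 in 4 AKO and at 0 in 4 WT libraries, or the reverse, with 198 and 58 rows and 42 and 8 gene totals.

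The members share few features that their choice did not use. They lie on 7 chromosomes, and 8 of 10 are annotated as protein-coding. They have 1 to 11 rows, where the median tested gene has 5. The number of rows equals the number of GENCODE M21 transcripts in 5 genes and exceeds it in the other 5. Exons of another gene overlap those of 6 members, all on the opposite strand. In 5 members, Rfc3, Pus10, Camsap2, Tom1l1 and Gm11747, no 31-base word of the longest transcript occurs in another gene's transcripts in the same orientation. Of such words, between 66.2% and 100% occur in another gene in Psme2, Gm7993 and Gm14308, 3.70% in Bnip2 and 0.21% in Myt1l. The opposite orientation was not searched. Sequence shared with the opposite-strand genes that overlap exons of Pus10, Camsap2, Tom1l1 and Gm11747 is therefore not counted.

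The rows of a gene can also be compared within genotypes. The choice of members bears on these values, since rows at 0 in all mice of a genotype have no spread there. The within-genotype variance of the total, divided by the summed variances of the rows, is below 1 where rows offset each other and above 1 where they move together. It was 0.497 for Pus10, 0.503 for Myt1l, 0.566 for Camsap2, 0.687 for Tom1l1, 0.785 for Psme2, 0.862 for Gm11747, 0.868 for Rfc3, 1.005 for Gm14308 and 1.53 for Bnip2. The median over 12318 tested genes with more than 1 row above 0 was 1.004, and 49.1% of them lay below 1, from which nothing is read about the members. The value of Myt1l rests on the 4 AKO mice alone.

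Genes of the same complexes and families did not differ between genotypes in a way that passed the test. In 7 lists of partner genes, 59 of 62 genes passed the filter on low values, 34 with higher and 25 with lower means in AKO on the log2 scale. By limma over all genes 0 passed an FDR of 0.05 in either direction (0.0212% of all tested genes passed as higher and 0.00706% as lower). An unadjusted p under 0.05 was found for 2 of them, against 673 of all 14172 tested genes, from which nothing is read about the lists. Their median log2 difference was 0.02, against 0.01 over all tested genes. The lowest FDR was 0.831.

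For the clamp loader and its clamp, 8 of 10 genes were positive and 2 negative (median 0.03). PCNA's gene Pcna, the clamp itself, had 125.5 ± 28.5 TPM in AKO and 111.1 ± 41.9 TPM in WT. For pseudouridine synthases, 6 of 12 were positive and 6 negative (median -0.01). Pusl1, with an unadjusted p of 0.034, had 21.4, 25.2, 22.9 and 23.4 TPM in AKO and 24.3, 30.3, 26.3 and 28.95 TPM in WT, and the groups overlap.

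For proteasome activators and the immunoproteasome, 3 of 8 were positive and 5 negative (median -0.03). Psmb9, an interferon-induced catalytic subunit, had 27.7 ± 0.780 TPM in AKO and 25.4 ± 1.34 TPM in WT, and Psme1, the partner of PSME2 in the cap, had 134.0 ± 7.58 TPM in AKO and 143.9 ± 16.7 TPM in WT. For the BNIP family and its partner genes, 4 of 7 tested genes were positive and 3 negative (median 0.04). Bcl2, a survival gene counted as a partner, had 5.06 ± 0.451 TPM in AKO and 5.91 ± 1.05 TPM in WT. For microtubule minus-end genes, 4 of 8 were positive and 4 negative (median -0.04). The relative Camsap1 had 4.97 ± 0.592 TPM in AKO and 5.68 ± 0.752 TPM in WT.

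For TOM1 family, VHS domain and related sorting genes, 5 of 9 were positive and 4 negative (median 0.02). Gga3, a Golgi sorting adaptor with an unadjusted p of 0.0485, had 12.9 ± 2.58 TPM in AKO and 9.55 ± 2.16 TPM in WT, with overlap. For the MYT family and the REST repressor complex, 4 of 5 tested genes were positive and 1 negative (median 0.07). Sin3b, a corepressor scaffold, had 101.9 to 112.2 TPM in AKO and 96.4 to 98.9 TPM in WT without overlap, and did not pass (FDR = 0.831). Myt1, a close relative of Myt1l added here after its values were seen, had at most 0.01 TPM in AKO and 0.08 TPM in WT.

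Neighbours on the chromosome did not pass the test either. The nearest tested gene on each side of a member in GENCODE M21 was taken, leaving out genes that overlap it, which gave 19 genes. Of these, 0 passed limma's FDR of 0.05 and 1, Zfp967, had an unadjusted p under 0.05. Over all 14172 tested genes, 4 passed and 673 had an unadjusted p under 0.05, so nothing is read about the neighbours. Beside Myt1l, Eipr1 had 22.1 ± 2.51 TPM in AKO and 22.6 ± 3.82 TPM in WT, and Pxdn, a peroxidasin gene of basement membranes, had 111.2 ± 15.1 TPM in AKO and 134.3 ± 27.4 TPM in WT. Genes whose exons overlap those of a member were also taken. For Psme2, Bnip2, Gm7993 and Gm14308, the genes sharing the most sequence were added. The longest transcript of Gm14308 shares sequence with 102 genes, that of Gm7993 with 20 and that of Myt1l with 37. Most of those were left out. Of the 8 tested genes among those taken, 0 passed and 1, Odc1, had an unadjusted p under 0.05. Nothing is read about these genes from the counts either.

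The gene totals most like the leading rows were largely the same few genes, by Pearson's r of log2(TPM + 1) over the 8 libraries. The points share libraries and genotypes, the contrast on which the members were chosen, so r is a description. Gm40847, a predicted gene on chromosome 12, was among the closest 2 for Bnip2 (r = 0.989), Myt1l (0.987), Pus10 (0.978), Rfc3 (0.976) and Gm7993 (0.973). It had 6.60, 9.19, 8.16 and 7.01 TPM in AKO and 1.28, 2.05, 1.37 and 1.40 TPM in WT. The Myt1l total was the closest to Gm7993 (0.983), and Gm7993 to Gm14308 (0.980) and Psme2 (0.985). For the rows lower in AKO, the translation initiation factor gene Eif2b1 was closest to Gm11747 (0.993) and the glutathione transferase gene Gstm6 to Tom1l1 (0.980). Camsap2 was closest to Socs7, a suppressor of cytokine signalling (0.969). Zim1 was closest to Rfc3 (0.979) and among the closest 2 for Myt1l (0.964). Bicd2 was among the closest 2 for both Tom1l1 (0.973) and Gm11747 (0.972).

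Several marker lists of other cells had differences mostly of 1 sign. Macrophage markers had positive log2 differences in 8 of 8 genes (median 0.50), with a summed level of 3597 to 6340 TPM in AKO and 2212 to 5219 TPM in WT. Fat cell markers were negative in 7 of 8 (median -0.14), and T and B cell markers summed to 11.1 to 28.7 TPM in AKO and 7.80 to 14.2 TPM in WT, with 4 of 4 tested genes positive. Markers of fibroblasts and progenitors were positive in 5 of 5 (median 0.31), those of endothelium negative in 4 of 5 (-0.08) and those of mesothelium negative in 3 of 5 (-0.18). Proliferation markers were positive in 6 of 6 (median 0.27). Epididymis and testis markers were positive in 3 of 3 tested genes of 7, and summed to 0.15 to 1163 TPM in AKO and 11.5 to 31.1 TPM in WT. These 3 are the sperm genes Prm1, Prm2 and Tnp1, which were highest in AKO 11. In AKO 3 and AKO 9 each of them was lower than in every WT library. By limma 0 of these marker genes passed an FDR of 0.05, and 3 had an unadjusted p under 0.05. Over all 14172 tested genes these numbers were 4 and 673, and nothing is read about the markers from the counts. The part of these cell types in the rows of the 10 genes was not tested.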

How the data were processed

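RNA of epididymal fat was extracted with Trizol and made into Illumina TruSeq RNA libraries, per the labels' protocols. The authors deposited TPM values, 152298 rows per library, which sum to 1000000 within rounding. The tools HISAT2 and DESeq2 and the build mm9 appear, per the submitters' processing notes, with no role or version. Quantifier, annotation and read depth: not given in the sources used here. Counting intervals are therefore omitted. GENCODE M21 (GRCm38) served for names, order and transcript sequences, and no coordinates are printed. Symbols matched 55141 of 55487 genes. Another 401 rows without a gene (0.605% to 0.943% of TPM) were left out.

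Genes (sums of rows) and single rows with at least 1 TPM in at least 4 libraries were fitted with limma 3.58.1 (R 4.3.3, trend) on log2(TPM + 1), AKO against WT, with Benjamini-Hochberg adjustment over all 14172 genes or 33323 rows and an FDR of 0.05. The fits were tested on simulated data. All 10 member totals and 9 leading rows passed this filter. Low rows pass it through the genotype where they are high, so they had to differ. The members, partner lists and rules for naming genes were chosen with earlier results of these data known. Named are all members with their rows and up to 3 partners per list by p. Only some are named of the neighbours, of the genes sharing exons or 31-base words, and of the 2 gene totals most like each leading row. Neighbours, sharing genes and the within-genotype variance were added after the files were seen. Separate mice are described, so p-values cover the spread between 4 and 4 mice. Alternatives were a pseudocount of 0.1, no filter, median-ratio scaling, the highest row per gene, row shares and leaving out each mouse.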

Additional observations from a re-analysis of the deposited data

Results flagged for a closer look

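Leading rows, rows with the largest difference of the other sign, and gene totals were screened, and other rows were not. In groups of 4 mice, a mouse was marked when its gap to the next value, over the group's range, passed Dixon's limit, which chance alone passes in about 1 of 20 groups. Where 3 mice are listed at 0, any value above 0 in the fourth is marked. Among the screened rows this holds for Psme2 row 4 in AKO 8 (0.77 TPM), Gm11747 row 5 in AKO 9 (0.31 TPM), Bnip2 row 7 in WT 3 (0.53 TPM), Psme2 row 1 in WT 3 (0.20 TPM), Pus10 row 7 in WT 4 (1.92 TPM) and Rfc3 row 7 in WT 2 (1.43 TPM). The Gm14308 total in WT 4 was 9.27 TPM, against 4.25 to 4.96 TPM in the other WT mice.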

How the results depend on the processing

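No paired analysis was possible because the groups share only mouse number 3, on separate animals. Of single rows, 5 were called higher in AKO and 2 lower at an FDR of 0.05, 0.0150% and 0.00600% of 33323. The count of 7 dropped to 2 with a pseudocount of 0.1, to 2 for row shares of the gene total, and to 0 with no filter (limma, 4045 of 99191 rows at an unadjusted p under 0.05), and was 0 to 2 without any 1 mouse. The 4 genes called became 1 to 5 without 1 mouse, falling to 1 without AKO 3 and to 2 without AKO 11 or WT 2. Partner genes stayed at 0 under every alternative run. Rows at 0 in all WT and above 0 in all AKO libraries numbered 363 to 419 without 1 mouse, and the reverse 109 to 160 (added after seeing the data), a rise that leaving out a sample builds in. Chosen by mean TPM, the leading row of Gm11747 became row 3, with a log2 difference of 0.59, and that of Psme2 also row 3, with 0.79 on the log2 scale, where WT 3 is listed at 0, but -16.03 in mean TPM, AKO minus WT. A pseudocount of 0.1 widened all 10 leading differences, and no mouse left out turned one. Unknown depth limits what a listing of 0 can show.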

Other observations

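Rows at 0 in 1 whole genotype, a pattern that only some of the 10 genes showed, were rare at higher levels. Of 99191 rows, 6 (0.00605%) were at 0 in all WT libraries and reached 1 TPM in all AKO libraries, and 0 showed the reverse. Of the 6, 3 belong to Rfc3, Pus10 and Gm14308, as their choice fixes. The other 3, named after their values were seen, were row 5 of Creb3, a gene for a membrane-bound transcription factor of the secretory pathway, and the single rows of Hmgn2-ps1 and Gm24074. Creb3 row 5 had 6.86, 3.90, 5.15 and 1.41 TPM in AKO mice 3, 8, 9 and 11 and was listed at 0 in WT.

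Sperm genes varied between libraries of both genotypes. Prm1, which packs sperm DNA and was named after its values were seen, had 0.28, 16.3, 0 and 415.1 TPM in AKO mice 3, 8, 9 and 11 and 3.48, 2.72, 7.73 and 10.6 TPM in WT mice 2, 3, 4 and 5.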
